A study of Mus musculus with 6 samples.

Results

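The MHC class II gene group was examined in bone marrow cells of mice on a control diet and on a high cholesterol diet. It was defined by gene symbol and has 10 members, all of which were among the 21851 genes of the deposited tables. They are the classical chain genes H2-Aa, H2-Ab1 and H2-Eb1, the invariant chain gene Cd74, the peptide editor genes H2-DMa, H2-DMb1 and H2-DMb2, the editor's inhibitor genes H2-Oa and H2-Ob, and the transactivator gene Ciita. The sort aimed at LT-HSCs, the haematopoietic stem cells with lasting repopulating ability, by a gate given as Lin-c-Kit+Sca1+CD34-CD135-. The mice were wild type (labelled WT) and were kept under specific pathogen-free conditions. They received control diet (CD, 3 libraries) or high cholesterol diet (HCD, 3 libraries) for 3 months. The sources used here give no strain, age or sex and do not say whether libraries of a group came from separate animals. Every p-value below therefore reflects the spread between libraries alone, which may be technical.

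MHC class II molecules present peptides from the endosome to CD4+ T cells. An alpha and a beta chain (H2-Aa with H2-Ab1, or the product of H2-Ea with H2-Eb1) assemble on the invariant chain CD74, which blocks the groove and steers the complex to the endosome. There proteases trim CD74, H2-DM exchanges its remnant for peptide, and H2-O restrains H2-DM. CIITA switches the genes on by docking to RFX, CREB and NF-Y, which sit on the X and Y boxes of class II promoters. B cells, dendritic cells and macrophages are the classical high expressers, and class II transcripts are also known in haematopoietic stem and progenitor cells.

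Promoters of the members were compared with the known layout of class II genes. The Y box core was searched as TGATTGG and the X box core as AAC followed by any 2 bases and ATGATGC, on both strands, in the 250 bases before each RefSeq start (GRCm38.p6). These letters were chosen after the class II sequences had been seen, and the motifs do not overlap each other. RefSeq promoter windows matched 7 of the 10 members. Stretches of 70 bases around the Y box of 6 members are shown, 5′ to 3′ on the gene's own strand, since they place the gene with the largest change (H2-Oa) beside its partner that did not pass the test (H2-Ob). Capitals mark the motif letters found.
H2-Aa, chr17:34287854-34287923, minus strand: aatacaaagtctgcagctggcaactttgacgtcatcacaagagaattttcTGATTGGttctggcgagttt
H2-Eb1, chr17:34305756-34305825, plus strand: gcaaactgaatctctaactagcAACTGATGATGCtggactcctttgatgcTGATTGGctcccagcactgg
H2-DMb1, chr17:34153078-34153147, plus strand: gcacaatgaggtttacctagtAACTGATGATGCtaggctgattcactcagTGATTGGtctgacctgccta
H2-DMb2, chr17:34145107-34145176, plus strand: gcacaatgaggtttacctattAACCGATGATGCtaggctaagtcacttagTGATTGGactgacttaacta
H2-Oa, chr17:34092284-34092353, plus strand: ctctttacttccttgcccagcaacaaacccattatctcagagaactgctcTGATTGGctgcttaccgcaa
H2-Ob, chr17:34238796-34238865, plus strand: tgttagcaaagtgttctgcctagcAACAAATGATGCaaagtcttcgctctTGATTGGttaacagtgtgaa

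The Y box core began 45 to 92 bases before the start in these 6 windows. In H2-Eb1, H2-DMb1, H2-DMb2 and H2-Ob the X box core lay upstream of it, with 14 to 17 bases between the motifs. Over all 32851 RefSeq windows of this length, 7.23% held the Y box core, 0.0304% (10 windows) the X box core, and 0.0152% (5 windows) both. The windows of H2-Aa and H2-Oa did not hold the X box letters, and the windows of H2-DMa held neither motif. Windows were not used here for H2-Ab1, Cd74 and Ciita.

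The 6 libraries had an estimated depth of 18800000 to 20000000 reads or fragments, and 10549 to 10675 genes reached 1 FPKM (fragments per kilobase of transcript, scaled to library depth) in each. Of the genes of the gate, Kit had a mean of 119.9 FPKM and Ly6a, which encodes SCA1, of 64.2. Cd34 averaged 464 FPKM and Flt3 (CD135) 109, although the gate takes cells without these proteins on the surface. Slamf1, which the stated gate does not name, averaged 2.60. The cells are therefore called here by their label. The change from CD to HCD ran with transcript length across 10354 genes, lower for long transcripts (Spearman rho -0.25, and -0.15 without HCD replicate 2). Replicate 2 of the HCD group differed from the other HCD libraries in the same way (rho -0.28), and main results that it moves are also given without it. The longest transcripts of the 9 members tested below are 1212 to 3223 bases long, under the median of 3377. With the length trend removed 5 of them were called higher, against 6 with it in place.

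Class II transcripts spanned a wide range of levels, and all members were detected in every library. FPKM is a value per length, so members can be ranked: H2-Ab1 was highest in all 6 libraries (63.1 to 93.5 FPKM), Cd74 followed (49.7 to 63.4) and H2-Aa came next (35.8 to 50.2). H2-DMb1 (25.1 to 36.1 FPKM) and H2-Ob (25.1 to 29.7) exchanged ranks between libraries, as did H2-DMa (17.6 to 21.7), H2-Eb1 (16.7 to 20.4) and H2-Oa (14.0 to 23.2), so the order within these neighbours was not resolved. H2-DMb2 (2.70 to 4.58 FPKM) was ninth and Ciita (0.67 to 1.06) last in every library. The mean of H2-Ab1 lay above that of 92.1% of the 10676 genes tested, that of Cd74 above 88.5% and that of H2-Aa above 83.3%. For H2-DMb1, H2-Ob, H2-DMa, H2-Eb1 and H2-Oa this share was 60.2% to 76.8%, and for H2-DMb2 it was 19.1%. In RNA from a whole sort, a few cells with much of a transcript and many cells with little of it cannot be told apart.

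**Figure D1:**
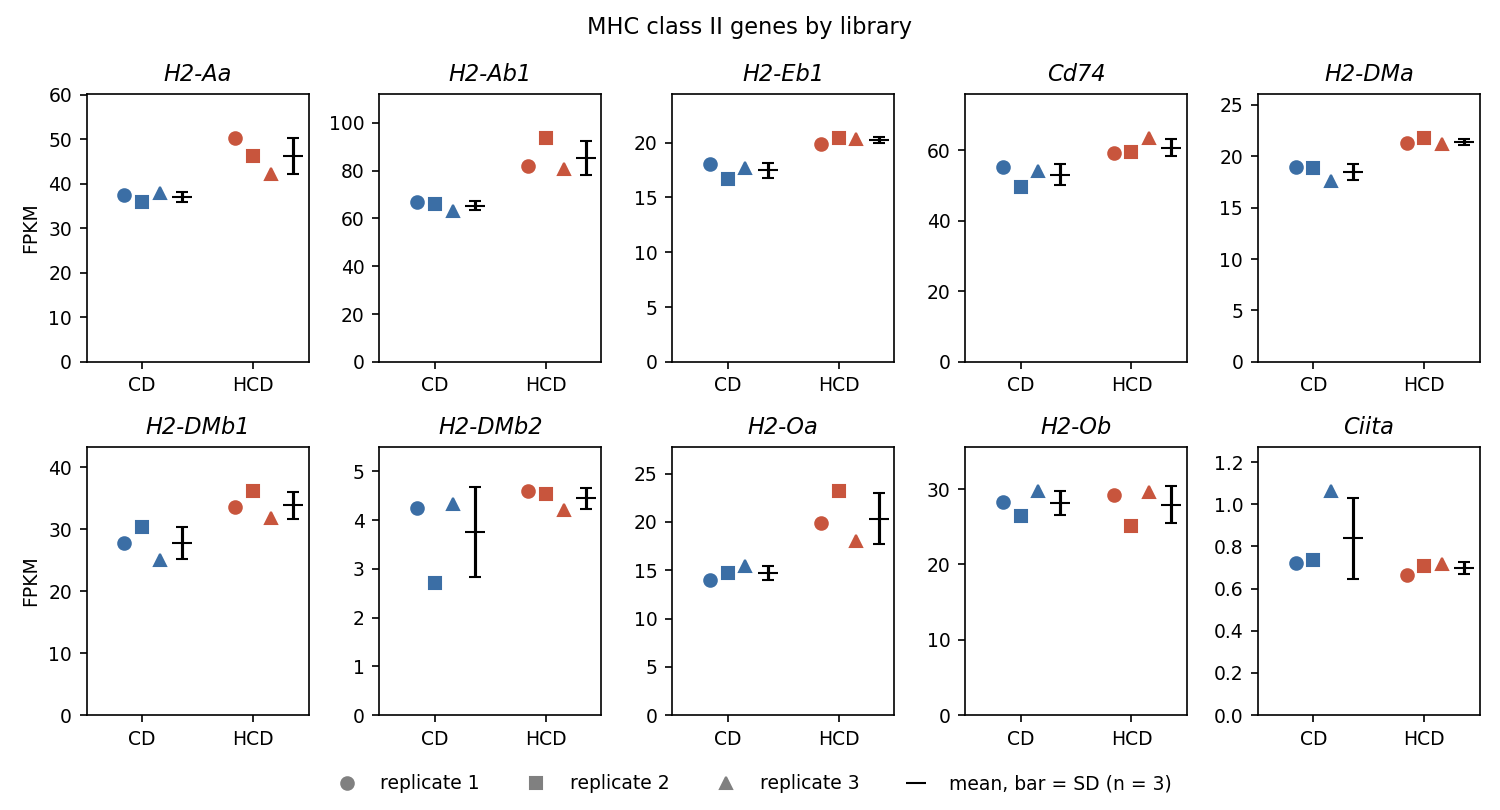
FPKM (vertical axis, from 0) of each of the 10 class II genes in the 3 CD (blue) and 3 HCD (red) libraries, with symbols for the replicate number and the mean with SD beside each group. In 7 panels every HCD library lies above every CD library, while H2-DMb2 and H2-Ob overlap and Ciita lies slightly lower under HCD.

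The comparison of HCD with CD asks whether these transcripts differ in the sorted cells after the cholesterol-rich diet. Of the 10 members 6 rose under HCD, 0 fell, 3 did not pass the test, and Ciita was below the filter of 1 FPKM in 3 libraries. The 6 were H2-Ab1, H2-Oa, H2-Aa, H2-DMa, H2-Eb1 and H2-DMb1, at 1.16 to 1.38 times their CD means. Over all genes tested 6.28% were called higher (limma on log2(FPKM + 1), two-sided, Benjamini-Hochberg adjusted p under 0.05). All 9 tested members passed the filter in both diets. Their median log2 change was 0.21, against -0.03 over all genes tested. The groups did not overlap, with HCD higher, in 7 members, and 15.0% of tested genes had that pattern. In Ciita alone they did not overlap with HCD lower, a pattern that 22.7% of tested genes had.

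The count of called members depended on single libraries and on the scale. Leaving out a CD library gave 1 (replicate 1), 2 (replicate 2) and 1 (replicate 3). Leaving out an HCD library gave 2 (replicate 1), 7 (replicate 2) and 4 (replicate 3). H2-Ab1 passed in 6 of these 6 fits, H2-Oa and H2-DMb1 in 3, H2-Aa in 2, and H2-Eb1 and H2-DMa in 1. Over all genes tested, 11% were called higher without HCD replicate 2 and 2.43% to 4.66% in the other 5 fits. The count of called members was 3 (H2-Aa, H2-Ab1 and H2-Oa) with no filter or with values rescaled to a common sum. It was the same 3 with an empirical Bayes step that ignores the mean-variance trend. In these fits, in that order, 3.45%, 4.51% and 5.48% of all genes tested were called higher. Each of the 6 kept a positive change in all of these fits.

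H2-Ab1 (chromosome 17, 34257689 to 34269419, GRCm38), which encodes the beta chain of the I-A molecule, was at 67.0, 66.0 and 63.1 FPKM in the CD libraries and 81.7, 93.5 and 80.7 in the HCD libraries. All HCD libraries were above all CD libraries, with HCD replicate 2 the highest. The mean went from 65.4 ± 1.99 to 85.3 ± 7.14 FPKM (SD, n = 3), a log2 change of 0.38 with a standard error of 0.06 (limma adjusted p = 0.00802). Without HCD replicate 2 its log2 change was 0.31 (adjusted p = 0.000656).

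H2-Aa (chromosome 17, 34282744 to 34287823), the gene of the partner alpha chain, was at 37.4, 35.8 and 37.8 FPKM under CD and 50.2, 46.1 and 42.1 under HCD. The groups did not overlap, and here HCD replicate 1 was the highest. The mean went from 37.0 ± 1.05 to 46.1 ± 4.03 FPKM (SD, n = 3; log2 change 0.31, SE 0.07, limma adjusted p = 0.0188). The ratio of H2-Ab1 to H2-Aa was 1.77 under CD and 1.85 under HCD, and the log2 ratios overlapped (0.74 to 0.88 against 0.70 to 1.02). Their difference went from 0.07 to 0.00029 when HCD replicate 2 was left out.

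H2-Eb1 (chromosome 17, 34305867 to 34316674), which encodes the beta chain of I-E, was at 18.0, 16.7 and 17.7 FPKM under CD and 19.9, 20.4 and 20.3 under HCD. The HCD libraries were close together and above the CD libraries. The mean went from 17.5 ± 0.69 to 20.2 ± 0.26 FPKM (SD, n = 3; log2 change 0.20, SE 0.05, limma adjusted p = 0.0403). With the replicate number as a block the adjusted p was 0.0511, and after removal of the length trend 0.0601. H2-Ea-ps is listed as the pseudogene of the alpha chain that pairs with it. Scaled by depth, its values were 1, 1 and 0 times its smallest nonzero value in the CD libraries. In the HCD libraries they were 1, 0 and 2 times that value, all within 0.02. That step was taken to be 1 read, which the values alone do not show. The related beta chain gene H2-Eb2 was at 0.11 to 0.31 FPKM.

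Together H2-Aa, H2-Ab1 and H2-Eb1 summed to 122, 119 and 119 FPKM in the CD libraries and 152, 160 and 143 in the HCD libraries. The difference of 31.8 FPKM had an exact two-sided permutation p = 0.1, the smallest that 3 against 3 libraries allow. It was 27.6 FPKM without HCD replicate 2. The balance between the beta chain genes of I-E and I-A was also compared. The log2 ratio of H2-Eb1 to H2-Ab1 was -1.90 ± 0.07 under CD and -2.07 ± 0.11 under HCD (SD, n = 3), lower in every HCD library than in every CD library by a narrow margin, -1.99 at the highest against -1.98 at the lowest (exact permutation p = 0.1, adjusted to 0.3 over the 6 ratios computed). The difference went from -0.17 to -0.11 without HCD replicate 2.

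Cd74 (chromosome 18, 60803848 to 60812652), the invariant chain gene, was at 55.2, 49.7 and 54.1 FPKM under CD and 59.2, 59.5 and 63.4 under HCD. The groups did not overlap, but the gene missed the threshold. The mean was 53.0 ± 2.92 under CD and 60.7 ± 2.34 FPKM under HCD (SD, n = 3; log2 change 0.19, 95% interval 0.07 to 0.32, limma adjusted p = 0.0501). With the replicate block the adjusted p was 0.0334. It was 0.02 without HCD replicate 2. The ratio of Cd74 to the summed chain genes was 0.44 under CD and 0.40 under HCD, and the log2 ratios overlapped (-1.25 to -1.13 against -1.43 to -1.18; exact permutation p = 0.2, adjusted to 0.3). Their difference was -0.14, and -0.09 without HCD replicate 2.

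H2-DMa (chromosome 17, 34119541 to 34139101), the alpha chain gene of the peptide editor, was at 18.9, 18.9 and 17.6 FPKM under CD and 21.3, 21.7 and 21.2 under HCD. Here too no HCD library fell to the CD range. The mean went from 18.5 ± 0.74 to 21.4 ± 0.29 FPKM (SD, n = 3; log2 change 0.20, SE 0.05, limma adjusted p = 0.0375). Its annotated span overlaps 4 other annotated genes, among them Brd2 on the opposite strand and CR974462.3 on the same strand. Of the other members, H2-Eb1 (with Gm20513), H2-Oa (with BC051537) and Ciita (with Dexi) each overlap 1 gene on the opposite strand. Cd74 overlaps Mir5107 on its own strand. How strand was used in counting is not stated by the submitters' notes or labels.

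The editor has a beta chain encoded by the neighbouring copies H2-DMb1 (chromosome 17, 34153072 to 34160230) and H2-DMb2 (chromosome 17, 34143307 to 34151555). H2-DMb1 was at 27.8, 30.4 and 25.1 FPKM under CD and 33.6, 36.1 and 31.9 under HCD. Its HCD libraries were all above its CD libraries, and its mean went from 27.8 ± 2.63 to 33.9 ± 2.12 FPKM (SD, n = 3; log2 change 0.28, SE 0.08, limma adjusted p = 0.0441). H2-DMb2 was at 4.25, 2.70 and 4.33 FPKM under CD and 4.58, 4.54 and 4.2 under HCD. CD replicate 2 alone was low, the groups overlapped, and the log2 change of 0.21 had a 95% interval of -0.11 to 0.53 (limma adjusted p = 0.334). Without CD replicate 2 the log2 change of H2-DMb2 was 0.04.

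Values of the DMb copies are uncertain because reads can fit both. Their longest GENCODE transcripts were 94.3% identical over 1211 aligned bases, and 27.2% of the 50-base words of H2-DMb1 also occurred in H2-DMb2. The other members shared no 50-base word with each other. H2-DMb1 had 7.53 times the FPKM of H2-DMb2 under CD and 7.62 times under HCD. The printed stretches of their promoters can be compared letter by letter above. The ratio of H2-DMa to the summed DMb copies was 0.59 under CD and 0.56 under HCD, with overlapping libraries. On the log2 scale the difference was -0.07, and -0.03 without HCD replicate 2.

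The inhibitor H2-O is also a pair of chains. H2-Oa (chromosome 17, 34092340 to 34095234), the alpha chain gene of H2-O, had the largest log2 change of the 9 tested members. It was at 14.0, 14.7 and 15.4 FPKM under CD and 19.9, 23.2 and 18.0 under HCD. The groups did not overlap and HCD replicate 2 was the highest. The mean went from 14.7 ± 0.73 to 20.3 ± 2.61 FPKM (SD, n = 3; log2 change 0.44, SE 0.09, limma adjusted p = 0.0161). Without HCD replicate 2 the log2 change was 0.34 (adjusted p = 0.00521).

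H2-Ob (chromosome 17, 34238903 to 34254414), the gene of the beta chain, was at 28.3, 26.4 and 29.7 FPKM under CD and 29.2, 25.1 and 29.6 under HCD. The diets overlapped, with replicate 2 lowest in each and HCD replicate 2 below all CD libraries. The log2 change was -0.01 with a 95% interval of -0.18 to 0.16 (limma adjusted p = 0.927), and its sign changed with the scaling. The log2 ratio of H2-Oa to H2-Ob, a ratio chosen after the values were seen, was -0.94 ± 0.09 under CD and -0.46 ± 0.31 under HCD (SD, n = 3). Every HCD library was above every CD library (exact permutation p = 0.1, adjusted to 0.3). HCD replicate 2 carried the largest part, with -0.12 against -0.55 and -0.72 in HCD replicates 1 and 3, and without it the difference between diets was 0.30 in place of 0.47.

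**Figure D2:**
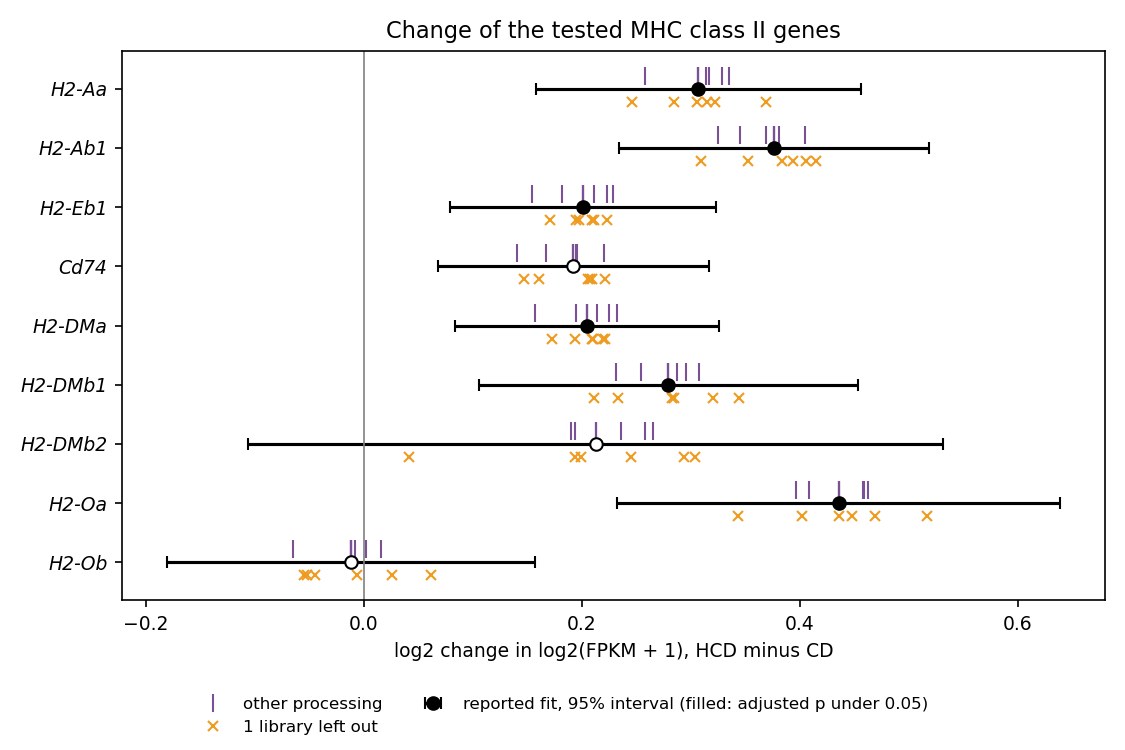
Log2 change in log2(FPKM + 1), HCD minus CD, of the 9 tested class II genes with 95% intervals (black, filled where the adjusted p is under 0.05), the values under other processing (bars above) and with 1 library left out (crosses below). H2-Oa has the largest change at 0.44, H2-Ob lies at -0.01, and leaving out a library moves H2-DMb2 down to 0.04.

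Ciita (chromosome 16, 10480059 to 10528418), the transactivator gene, was at 0.72, 0.73 and 1.06 FPKM under CD and 0.67, 0.71 and 0.72 under HCD. It is known to switch on the other members. Its HCD values all lay below the CD values, although the groups nearly touched, at 0.719 for the highest HCD and 0.723 FPKM for the lowest CD library. The means were 0.84 ± 0.19 and 0.70 ± 0.03 FPKM (SD, n = 3; exact two-sided permutation p = 0.1, the smallest possible). These levels correspond to about 80 to 120 reads if they refer to the longest annotated transcript, which gives a counting error of about 11% at the lowest. Without CD replicate 3 the difference went from -0.14 to -0.03 FPKM.

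The complex of RFX, NF-Y and CREB had 1 riser and 1 faller among its 7 genes (median log2 change -0.06), where 6.28% of all genes tested were higher and 7.66% lower. Rfxap, an RFX subunit gene, was at 8.48, 9.28 and 8.62 FPKM under CD and 10.5, 10.7 and 13.0 under HCD (log2 change 0.33, SE 0.09, limma adjusted p = 0.0392). All its HCD libraries were above its CD libraries, but it did not pass with no filter (adjusted p = 0.0745) or with values rescaled to a common sum (adjusted p = 0.0842). Creb1 fell from 14.9 ± 0.43 to 12.5 ± 0.49 FPKM (SD, n = 3; limma adjusted p = 0.0341), but did not pass after removal of the length trend (adjusted p = 0.216). With a library left out, Rfxap and Creb1 each passed in 1 of 6 fits, the one without HCD replicate 2. Rfxank was at 5.22 ± 0.25 and 6.18 ± 0.10 FPKM (adjusted p = 0.09). Rfx5, the DNA-binding subunit gene, was at 12.7 ± 0.69 and 12.3 ± 0.63 FPKM (adjusted p = 0.678), and Nfya, an NF-Y subunit gene, at 79.4 ± 1.33 and 74.6 ± 2.55 (adjusted p = 0.206).

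Genes upstream of Ciita had 0 risers among 11 tested of 12, where 6.28% of all genes tested were higher. The median log2 change of the list was 0.05. Interferon gamma is the best known outside signal for Ciita. Ifngr1, the gene of the ligand-binding chain of its receptor, was at 49.4 ± 3.41 under CD and 56.9 ± 1.91 FPKM under HCD (SD, n = 3; limma adjusted p = 0.0519, and 0.0345 with the replicate block). Irf2 was at 17.4 ± 1.08 and 19.6 ± 0.58 FPKM (adjusted p = 0.103) and Spi1, the gene of PU.1, at 60.9 ± 2.02 and 66.9 ± 5.49 (adjusted p = 0.198). Without HCD replicate 2 the list had 3 risers, Ifngr1, Irf1 and Irf2, where 11% of all genes tested were higher.

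Endosomal genes, whose products cut or unfold antigen and CD74, had 3 risers and 0 fallers among 11 tested. Over all genes tested 6.28% were higher and 7.66% lower. The median log2 change of the endosomal genes was 0.15. Ctse (cathepsin E) was at 8.30, 8.94 and 9.25 FPKM under CD and 15.1, 14.1 and 15.3 under HCD, with a wide gap between the groups (log2 change 0.69, SE 0.07, limma adjusted p = 0.000838). Ctsb (cathepsin B) rose from 37.3 ± 1.02 to 45.3 ± 3.51 FPKM (adjusted p = 0.0228) and Ctsl (cathepsin L) from 7.58 ± 0.997 to 9.96 ± 0.63 (adjusted p = 0.043). Ctss, the protease gene best known for the last cuts of CD74 in B cells and dendritic cells, was at 25.3 ± 0.57 under CD and 28.2 ± 1.32 FPKM under HCD (adjusted p = 0.0938). Ctsz (cathepsin Z) was at 75.2 ± 4.21 and 87.0 ± 9.08 FPKM (adjusted p = 0.107, and 0.0302 with the replicate block). Ctse passed in 6 of 6 fits with a library left out, Ctsb in 2 and Ctsl in 1.

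CD74 is also a surface receptor for the cytokine MIF. Among 5 genes of this axis, 4 were tested, 0 rose and 1 fell, where 6.28% of all genes tested were higher and 7.66% lower. Cd44, the co-receptor gene, went from 38.5 ± 0.58 to 33.2 ± 1.69 FPKM (SD, n = 3; limma adjusted p = 0.03), but missed the threshold after removal of the length trend (adjusted p = 0.075) and in 4 of 6 fits with a library left out. Cxcr4 was at 40.1 ± 0.47 and 35.2 ± 2.76 FPKM (adjusted p = 0.0773), Mif at 359 ± 13.6 and 342 ± 21.6 (adjusted p = 0.446), and Ddt at 33.0 ± 3.09 and 36.2 ± 1.35 (adjusted p = 0.225). Costimulatory and coinhibitory genes, which professional presenting cells carry beside class II, differed widely in level. Cd80 was at 0 to 0.06 FPKM, Cd40 was listed at 0 in 5 of the libraries and at 0.11 in HCD replicate 2, and Cd86 was at 1.15 to 2.12. Icosl was at 4.39 to 5.59 FPKM and Cd274, which encodes PD-L1, at 10.6 to 13.9. Of 6 tested of 8 in that list 0 rose and 1 fell, Cd276, from 1.75 ± 0.30 to 0.92 ± 0.28 FPKM (adjusted p = 0.0392). Cd276 came through the filter by its CD libraries alone and passed in 2 of 6 fits with a library left out. Pdcd1lg2, Tnfsf9 and Icosl had adjusted p-values of 0.168, 0.253 and 0.334. The list had 1 riser without HCD replicate 2, Cd274 (log2 change 0.25, adjusted p = 0.0186, against 0.369 with all libraries). In that fit 11% of all genes tested were higher.

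**Figure D3:**
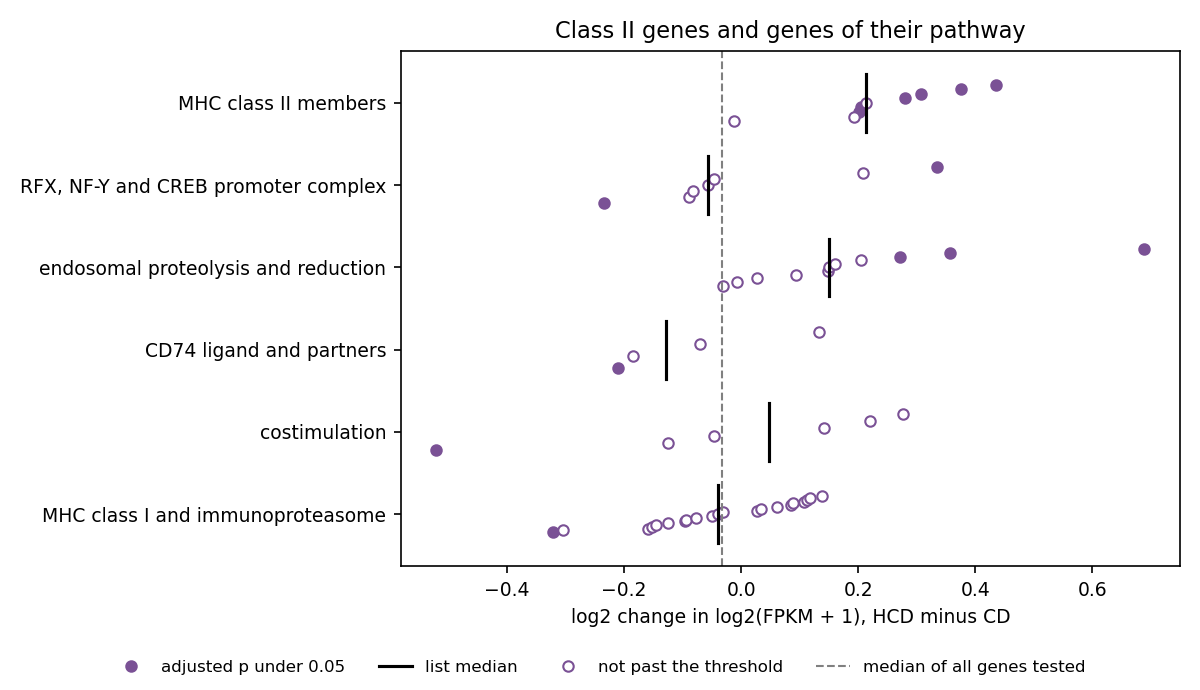
Log2 change in log2(FPKM + 1), HCD minus CD (horizontal axis), of every tested gene of the class II group and of 5 related lists (rows), filled where the adjusted p is under 0.05, with list medians as vertical lines. The class II median is 0.21, the endosomal median 0.15 and the class I median -0.04, beside -0.03 for all genes tested (dashed).

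MHC class I genes, which present cytosolic peptides under the transactivator NLRC5, are the nearest counterpart. The list of 21 class I and immunoproteasome genes had 0 risers and 1 faller (median log2 change -0.04). In the same fit 6.28% of all genes tested were higher and 7.66% lower. The faller was the chaperone gene Canx, from 153 ± 2.42 to 123 ± 6.25 FPKM (SD, n = 3; limma adjusted p = 0.00532). Psme2 had an adjusted p of 0.0874, and 0.0497 with the replicate block. B2m, the light chain gene, was at 1769 ± 43.6 and 1802 ± 24.5 FPKM (adjusted p = 0.747), H2-K1 at 931 ± 14.9 and 911 ± 18.8 (adjusted p = 0.681), and H2-T23 at 193 ± 3.18 and 213 ± 4.98 (adjusted p = 0.0609). Erap1, which trims class I peptides, had a log2 change of -0.15 (adjusted p = 0.0676). Nlrc5 was at 17.2 ± 0.82 and 14.1 ± 3.62 FPKM (adjusted p = 0.232), with HCD replicate 2 lowest at 9.92. The difference between the class I and class II lists was not tested. The class I list had 7 fallers after quantile normalization, where 7.77% of all genes tested were lower. It had 5 with values rescaled to a common sum, where 11.3% were lower. Without HCD replicate 2 it had 4 risers and 8 fallers, and the class II group had 7 and 0. In that fit 11% of all genes tested were higher and 14.2% lower. The 4 class I risers were the heavy chain genes H2-D1, H2-Q4, H2-Q6 and H2-T23, while H2-K1 and H2-Q7 did not pass. The 8 fallers were Canx, Calr, Erap1, Pdia3, Psmb8, Psmb10, Psme2 and Tapbp.

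Most class II members are neighbours on the chromosome. From H2-Oa to H2-Eb1 the interval on chromosome 17 spans 224 kb and holds 13 genes of the tables, of which 8 are class II members. The 5 others lie between them, namely Brd2 and the class I processing genes Psmb9, Tap1, Psmb8 and Tap2. Of these 5, 0 passed in either direction, with log2 changes from -0.09 to 0.14. Over all genes tested 13.9% passed, so 0 of 5 does not set these genes apart from the rest. Tap1 was at 87.3 ± 1.67 and 94.5 ± 2.48 FPKM (SD, n = 3; limma adjusted p = 0.111). H2-Ob, which did not pass, lies next to H2-Ab1, which did.

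**Figure D4:**
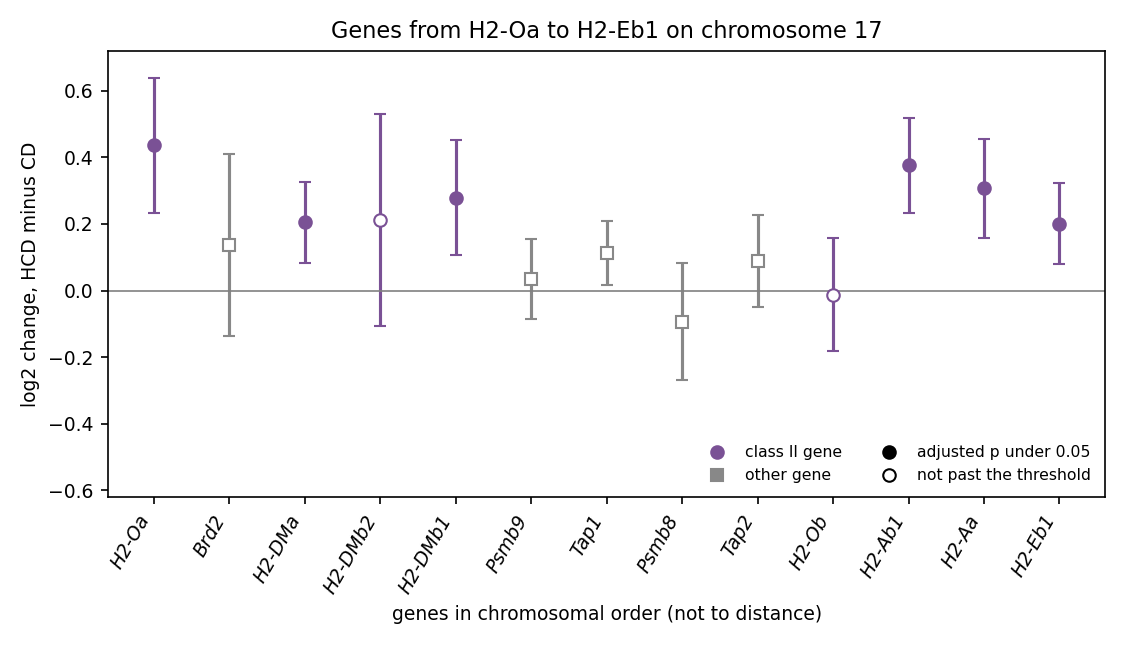
Log2 change, HCD minus CD, with 95% intervals (vertical axis) for the 13 genes from H2-Oa to H2-Eb1 in chromosomal order, class II genes as purple circles and others as grey squares, filled where the adjusted p is under 0.05. The 5 other genes are open, between -0.09 and 0.14, and the filled points are 6 class II genes between 0.20 and 0.44. Over all genes tested 13.9% passed.

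Most listed markers of B cells and of dendritic cells averaged under 1 FPKM in these libraries, while most of those of macrophages and monocytes did not. In the B cell list 10 of 12 genes were in the tables and 8 averaged under 1 FPKM. Its summed level was 23.6 to 29.8 FPKM under CD and 27.3 to 28.7 under HCD, nearly all of it Cd79b. Without Cd79b the sums were 3.19 to 3.46 and 2.87 to 3.97 FPKM. Cd79a, a chain gene of the B cell receptor complex, was at 1.7 ± 0.16 and 1.85 ± 0.44 (SD, n = 3; limma adjusted p = 0.754). Ms4a1 (CD20) was at 0 to 0.10 FPKM under CD and 0.15 to 0.33 under HCD. Pax5, the B cell identity factor gene, was at 0.25 to 0.30 under CD and 0.07 to 0.10 FPKM under HCD, and Blk at 0.30 to 0.41 and 0.16 to 0.25. These 3 genes were below the filter, and their groups did not overlap, with Ms4a1 higher and Pax5 and Blk lower under HCD. Among the genes tested, which exclude these 3, 15.0% had groups apart with HCD higher and 22.7% with HCD lower.

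In the dendritic cell list 7 of 12 genes averaged under 1 FPKM, and its sum was 91.2 to 95.6 FPKM under CD and 81.3 to 84.7 under HCD. Bst2, which many cells express, made up most of it and fell (80.8 ± 1.60 to 68.7 ± 0.80 FPKM, limma adjusted p = 0.00938). Without Bst2 the sums were 10.9 to 13.1 and 12.9 to 15.1 FPKM. Zbtb46, the defining factor gene of classical dendritic cells, was at 0.07 to 0.22 FPKM, and Cd209a was at 0 in 4 of the libraries. Itgax (CD11c) was at 2.09 ± 0.25 and 2.24 ± 0.18 (adjusted p = 0.669). Clec10a rose from 6.15 ± 0.75 to 9.26 ± 1.04 FPKM (adjusted p = 0.0154), and Ccr9 fell from 1.49 ± 0.02 to 0.79 ± 0.08 (adjusted p = 0.012). Ccr9 came through the filter by its CD libraries alone. With a library left out, Bst2 missed the threshold without CD replicate 1 or 3 and Clec10a without CD replicate 2 or 3.

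The macrophage and monocyte list summed to 30.9 to 33.0 FPKM under CD and 32.2 to 35.9 under HCD, with 4 of 12 genes under 1 FPKM on average. Its members went both ways, with 3 risers and 2 fallers among 8 tested, where 6.28% of all genes tested were higher and 7.66% lower. Csf1r rose from 6.37 ± 0.24 to 8.61 ± 0.67 FPKM (limma adjusted p = 0.0151), Ccr2 from 1.83 ± 0.23 to 3.72 ± 0.49 (adjusted p = 0.005) and Cd68 from 13.9 ± 0.44 to 16.6 ± 1.07 (adjusted p = 0.039). C1qa fell from 1.85 ± 0.21 to 0.55 ± 0.22 FPKM (adjusted p = 0.00373), and C1qb from 2.30 ± 0.33 to 0.82 ± 0.14 (adjusted p = 0.00274). C1qc was at 1.95 ± 0.77 and 0.71 ± 0.49 (adjusted p = 0.0553, and 0.00557 with the replicate block). With a library left out, Ccr2 passed in 6 of 6 fits, Csf1r in 3 (not without any 1 of the CD libraries) and Cd68 in 2 (those without HCD replicate 1 or 2). Cd68 also missed the threshold with no filter, with the length trend removed and with values rescaled to a common sum. The C1q genes came through the filter by their CD libraries alone. Adgre1 (F4/80) was at 0.27 to 0.47 under CD and 0.17 to 0.63 FPKM under HCD, and Marco was at 0 in all HCD libraries.

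The T and NK cell list summed to 103 to 108 FPKM under CD and 127 to 150 under HCD, and Nkg7, a granule gene, made up nearly all of it. Without Nkg7 the sums were 0.52 to 1.07 and 1.25 to 1.65 FPKM, higher under HCD with no overlap. Klrb1c made up most of what remained, at 0.40 to 0.91 and 1.22 to 1.29 FPKM. Ncr1 was far below the filter, at 0.03 to 0.07 and 0 to 0.03 FPKM. Its groups nearly touched, at 0.0333 for the highest HCD and 0.0346 FPKM for the lowest CD library, so no direction is read from it. Nkg7 went from 104 ± 2.76 to 136 ± 11.4 FPKM (SD, n = 3; limma adjusted p = 0.00739) and Klrb1c from 0.63 ± 0.26 to 1.26 ± 0.04 (adjusted p = 0.039), while Cd3e was at 0 in all 6 libraries. Klrb1c came through the filter by its HCD libraries alone, passed in 1 of the 3 left-out fits that tested it, and missed the threshold with no filter. A list of 6 stem cell surface genes had 1 riser and 0 fallers (median log2 change -0.04), where 6.28% of all genes tested were higher and 7.66% lower. The riser, Slamf1 (CD150), is not named in the stated gate. It went from 1.79 ± 0.47 to 3.41 ± 0.27 FPKM (adjusted p = 0.0118), and missed the threshold without CD replicate 1 or 3. Ly6a (adjusted p = 0.162) and Flt3 (adjusted p = 0.104) were lower in every HCD than in every CD library, as were 22.7% of tested genes. Kit, Cd34 and Cd48 overlapped between diets. Markers of several cell types therefore also differed between the diets, some higher and some lower under HCD, and Slamf1 was higher. Their part in the class II result was not tested.

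**Figure D5:**
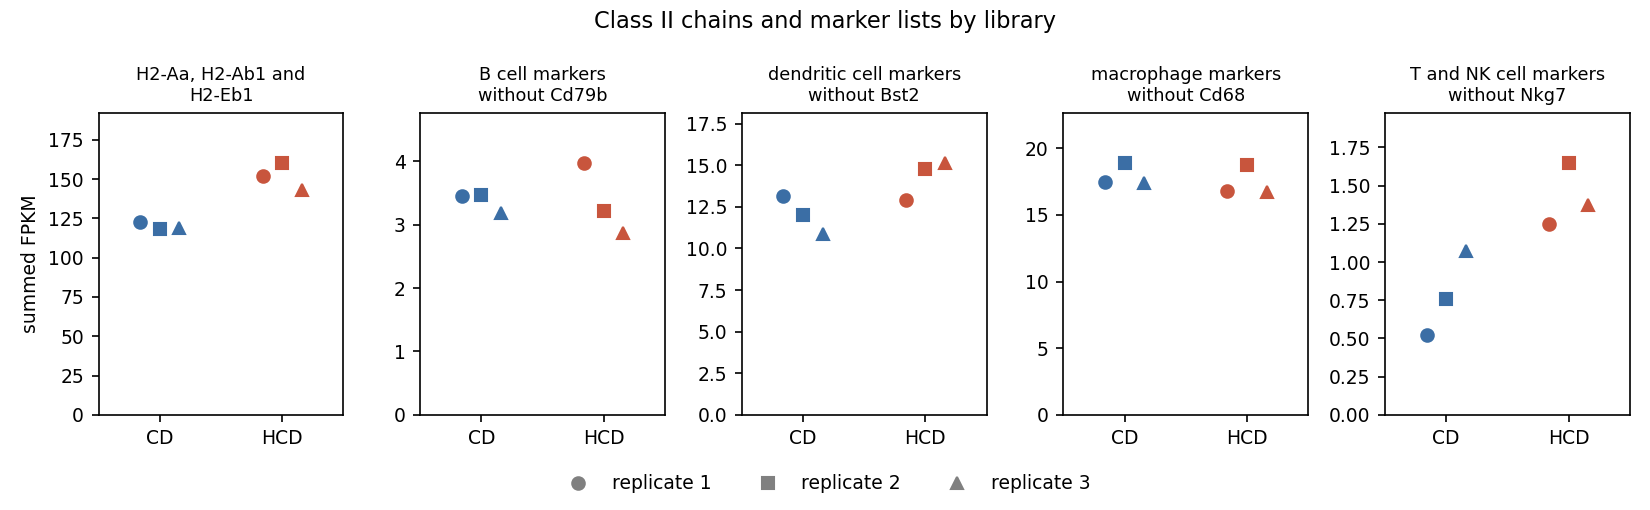
Summed FPKM (vertical axes, from 0) of H2-Aa, H2-Ab1 and H2-Eb1 and of 4 marker lists, each without its most abundant gene, in the 3 CD (blue) and 3 HCD (red) libraries with symbols for the replicate number. The chain genes lie at 119 to 122 against 143 to 160 FPKM. The T and NK cell sums, mostly from Klrb1c, lie at 0.52 to 1.07 against 1.25 to 1.65. The B cell, dendritic cell and macrophage sums overlap between diets.

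Across the 6 libraries, the genes whose log2(FPKM + 1) ran closest to the mean standardised profile of the 9 tested members were C1qtnf6 (Pearson r = 0.997), Tmem215 (0.996), Haghl (0.996), Mtus1 (0.995) and Nupr1 (0.994). These correlations are descriptions over 6 libraries in which the diets part the values, and 201 of 10339 genes compared had an r above 0.95. Mtus1 reached 1 FPKM in the HCD libraries only, and Tmem215 in these and CD replicate 1, so the filter kept them through the group in which they were high.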

How the data were processed

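The deposited values are taken as FPKM per gene, from the values themselves, since the header of each file names only its sample. The submitters' processing notes list StringTie, HISAT2 and fastp, with mm10 and GRCm38 as builds. Tool versions and the annotation are not given in the sources. Per the labels' protocols libraries came from a stranded mRNA kit. The tables have 21878 rows. A date stands where the symbol should be in 27 of them (0.127% of FPKM), and the remaining 21851 genes were used. Depth was estimated from the worth of 1 read in values under 0.3 FPKM. Read numbers cover counting error only, and the 95% intervals of log2 changes are limma's, from the spread between libraries.

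The test was limma 3.58.1 (R 4.3.3) on log2(FPKM + 1), unpaired, with the trend and robust options of its empirical Bayes step, over 10676 genes at 1 FPKM or more in at least 3 libraries, adjusted over all of them. It was tested on simulated data. A log2 change on this scale understates that of low genes. Exact permutation over libraries served sums and ratios. Correlations of the deviations from group means were 0.103, 0.292 and 0.166 for same-numbered libraries. Different numbers gave -0.25 to 0.098, so the lowest same-numbered value barely exceeded the highest of the others. A replicate block was fitted as an alternative, and its value is given where it changes a call. The labels do not state a pairing.

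Members, lists, tests and alternatives were chosen with earlier results of these data known. Named genes are all members, H2-Ea-ps, H2-Eb2, Nlrc5, set marker genes, and from each list those past the threshold and up to 4 with the smallest p, and 5 genes by likeness. Others were named after their values were seen. Positions and transcript lengths are from GENCODE vM21 (GRCm38), promoters from RefSeq (GRCm38.p6). Genes listed only under other symbols, such as the March ligases, were not analysed here. Some results under this rule are not reported here.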

Additional observations from a re-analysis of the deposited data

How the results depend on the processing

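The number of class II members called was 6 with a pseudocount of 0.1, 7 with a filter of 5 FPKM, 7 with trimmed mean scaling, 7 with quantile normalization, 5 with the length trend removed and 6 with the replicate block. It was 3 with no filter, 3 with values rescaled to a common sum and 3 with plain empirical Bayes, and 1 to 7 with 1 library left out. None of the 10 was called lower in any of these fits. The block ended the call of H2-Eb1 and called Cd74, Ifngr1, Ctsz, Psme2 and C1qc, and changed no other call of a listed gene. Over all genes 1488 passed, 1149 to 1873 under other processing, and 435 to 2672 with 1 library left out. Of these 670 were higher and 818 lower, against 744 and 590 with trimmed mean scaling, 784 and 599 with the length trend removed, and 516 and 1294 rescaled to a common sum. The log2 ratio of H2-DMb1 to H2-DMb2 differed between diets by 0.02, by -0.023 after quantile normalization, and by -0.17 to 0.31 with 1 library left out. With 1 library left out, the difference was 0.00029 to 0.16 for H2-Ab1 to H2-Aa, -0.21 to -0.11 for H2-Eb1 to H2-Ab1, -0.22 to -0.09 for Cd74 to the chains and -0.10 to -0.03 for H2-DMa to the DMb sum. The causes were not tested. Estimated counting error at the lowest value was 11% for Ciita and 12% for H2-DMb2, the largest among the members.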
